A study of Mus musculus with 8 samples.

Results

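The galectins are a family of lectins that bind sugars ending in β-galactosides. Of this family, Lgals1, Lgals2, Lgals3, Lgals4, Lgals8 and Lgals9 were followed here in the livers of WT mice and of mice lacking SIRT7, a histone deacetylase. These 6 genes were chosen from the difference between the genotypes on these same arrays, and every probe set annotated to exactly one of them was kept. This gave 9 probe sets of the 22626 that were tested. The genotype differences of the galectins are therefore given as a description and carry no test.

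Liver total RNA was hybridised to Affymetrix GeneChip mouse arrays, with 4 arrays from WT mice and 4 from SIRT7 KO mice and 1 array for each labelled sample. All mice are labelled only by tissue and genotype, and no source read for these arrays gives their strain, age or sex. The SIRT7 KO mice lack the gene in every cell, so that a difference in whole liver does not place the change in hepatocytes. SIRT7-deficient mice are kept as a model of fatty liver disease that arises on a chow diet.

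Galectins are made in the cytosol, leave the cell without a signal peptide, and cross-link glycoproteins that carry N-acetyllactosamine on their branched N-glycans. Prototype galectins such as galectins 1 and 2 carry a single sugar-binding domain and pair up, the chimera galectin 3 joins such a domain to a long flexible tail, and the tandem-repeat galectins 4, 8 and 9 link a pair of domains in a single chain. In liver, galectin 1 is known from stellate cells and leukocytes, galectin 3 is a classical macrophage protein, and galectins 2 and 4 are best known from the epithelium of the gut.

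Values are log2 expression as deposited, and a level of a given probe set is compared only with the same probe set on other arrays, since probes differ in brightness. Differences are SIRT7 KO minus WT with the standard error (SE) of a limma fit across all probe sets, and a probe set was called changed at a Benjamini-Hochberg adjusted p under 0.15, following the false discovery rate in the study's methods. Sirt7 itself, the check of the labels, fell from 8.85 ± 0.19 (SD, n = 4) on the WT arrays to 4.64 ± 0.22 (n = 4) on the SIRT7 KO arrays. Array medians ran from 6.30 to 6.36. Signs of RNA quality and hybridisation separated the genotypes without overlap. The GAPDH probe set at the 3′ end exceeded that at the 5′ end by 0.163 to 0.289 on the WT arrays and by -0.016 to 0.160 on the SIRT7 KO arrays, and the mean of 42 spike-in control probe sets was 8.99 to 9.13 and 8.75 to 8.98. The part of these in the galectin differences was not tested. The lower quartile of each array lay between 4.52 and 4.60 and serves below as the mark of a dim probe set.

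One feature of the arrays touches the galectins of leukocytes. Of 8 neutrophil markers measured, 6 were higher on WT 2, WT 3 and SIRT7 KO 4 than on any of the other 5 arrays by more than 1 on the log2 scale. The mean of the neutrophil list was 9.02 on WT 2, 8.48 on WT 3 and 8.13 on SIRT7 KO 4, against 5.15 to 5.66 on the others. Neutrophil RNA thus differed between arrays of the same genotype, and each galectin is also given without these 3 arrays, a choice made after the data were seen.

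Lgals1 encodes the prototype galectin 1, and lies at chr15:78926725-78930465 (GRCm38.p6). Its brighter probe set, 1455439_a_at, read 7.75, 8.45, 8.38 and 6.96 on WT 1 to 4 and 9.87, 9.34, 9.78 and 9.04 on SIRT7 KO 1 to 4. The lowest SIRT7 KO array, number 4, lay above the highest WT array, number 2, and WT 4 was the lowest of all. Mean expression was 7.89 ± 0.69 (SD, n = 4) in WT and 9.51 ± 0.39 (n = 4) in SIRT7 KO livers, a difference of 1.62 ± 0.32 (SE), or 3.08-fold.

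The second Lgals1 probe set, 1419573_a_at, gave almost the same profile. It read 7.21, 7.74, 7.88 and 6.43 on the WT arrays and 9.31, 8.80, 9.10 and 8.46 on the SIRT7 KO arrays, again with no overlap, and differed by 1.60 ± 0.31 (3.04-fold). Lgals1 thus had the largest difference of the 6 genes. Leaving out WT 4 gave the smallest value for the first probe set, 1.31, and leaving out the 3 arrays high in neutrophil markers gave 2.31 and 2.25 for the pair.

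Lgals2, the other prototype galectin, is the closest of the listed genes to Lgals1 on the chromosome, at chr15:78850860-78855529, 71196 bases away with 3 protein-coding genes between them. Probe set 1417078_at read 4.83, 4.48, 4.66 and 4.76 in WT and 4.77, 4.89, 4.82 and 4.76 in SIRT7 KO livers, and probe set 1417079_s_at read 4.51, 4.29, 4.29 and 4.61 against 4.53, 4.26, 4.31 and 4.62. Both sat near the dim end of the arrays, and 3 arrays of each genotype were below the lower quartile for the second. The genotypes overlapped on both, with differences of 0.13 ± 0.086 and 0.0038 ± 0.11. These were 0.027 and -0.19 without the 3 arrays high in neutrophil markers.

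The genes between this pair, Gga1, Sh3bp1 and Pdxp, did not follow Lgals1. Their differences ran from -0.095 to 0.040, the smallest adjusted p by limma was 0.724, and 0 of the 3 passed the threshold. The suffix _s_at marks probe sets that can match transcripts of more than one gene, and whether the second Lgals2 probe set reads other RNA was not tested.

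Lgals3 (chr14:47373860-47386167) encodes the chimera galectin 3, long used under the name Mac-2 as a surface marker of macrophages. Its only probe set, 1426808_at, read 7.49, 8.70, 8.13 and 7.27 on the WT arrays and 8.79, 8.44, 9.14 and 8.89 on the SIRT7 KO arrays. The groups overlapped, because WT 2 lay above SIRT7 KO 2, while the other 3 WT arrays were below all 4 SIRT7 KO arrays. Means were 7.90 ± 0.65 (SD, n = 4) and 8.81 ± 0.29 (n = 4), a difference of 0.92 ± 0.29 (1.89-fold) that did not reach the threshold.

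WT 2 and WT 3, the highest WT arrays for Lgals3, are also those with high neutrophil markers. Without them and SIRT7 KO 4 the Lgals3 means were 7.38 on the WT arrays and 8.79 on the SIRT7 KO arrays. The difference of 1.41 did not pass the threshold. The groups of the 5 arrays left did not overlap, but WT 2, the WT array that had caused the overlap, was among those left out. How many of all probe sets did not overlap on these 5 arrays was not counted, so nothing is read from it. The part that leukocyte content plays in the Lgals3 value was not tested.

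Lgals8 (chr13:12439402-12464977) encodes a tandem-repeat galectin that binds sugars exposed on broken endosomes and lysosomes and recruits autophagy adaptors there. Probe set 1422662_at read 10.97, 10.97, 11.06 and 10.94 in WT and 11.40, 11.35, 11.53 and 11.41 in SIRT7 KO livers. The 4 arrays of each genotype were closely packed and well apart, with SDs of 0.052 and 0.073 around means of 10.98 and 11.42, and the difference was 0.44 ± 0.065 (1.36-fold).

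Probe set 1422661_at of Lgals8 read 9.06, 9.10, 9.17 and 9.31 against 9.71, 9.53, 9.78 and 9.58, without overlap, a difference of 0.49 ± 0.084 (1.41-fold). Although smaller in fold than Lgals1, Lgals8 had the smallest spread within each genotype of the probe sets that passed. Its probe sets were the only ones of the 9 past the threshold whichever single array was left out. Since the genes were chosen from this contrast, that carries no test. Without the 3 arrays high in neutrophil markers the differences were 0.47 and 0.49, close to those over all arrays, although with 5 arrays neither passed the threshold.

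Lgals9 (chr11:78962979-78984924) encodes a tandem-repeat galectin that interferons induce and that binds the T cell receptor TIM-3. Probe set 1421217_a_at read 10.57, 10.40, 10.68 and 10.21 on the WT arrays and 11.05, 10.73, 10.89 and 10.79 on the SIRT7 KO arrays. The lowest SIRT7 KO array, 2, stood just above the highest WT array, 3. Means were 10.47 ± 0.20 (SD, n = 4) and 10.86 ± 0.14 (n = 4), a difference of 0.40 ± 0.11 (1.32-fold). Without the 3 arrays high in neutrophil markers the difference was 0.50 and did not pass the threshold. Of the 9 probe sets Lgals9 was the one just inside the threshold, and Lgals3, with a larger difference and a larger SE, the one just outside it.

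Lgals4 (chr7:28833122-28841710), the tandem-repeat galectin of gut epithelium, was dimmer. Probe set 1451336_at read 6.19, 6.14, 6.04 and 5.91 in WT and 6.66, 6.38, 7.13 and 6.65 in SIRT7 KO livers. No arrays overlapped, SIRT7 KO 3 stood highest, and the difference was 0.64 ± 0.15 (1.55-fold). Of 7 intestinal markers measured, 5 were below the lower quartile on all 8 arrays. The other pair were Fabp2, a fatty acid carrier of gut epithelium, which lay between 10.89 and 12.34 and was highest on SIRT7 KO 1 and 2, and Cdx2, a gut transcription factor, with means of 5.46 in WT and 5.61 in SIRT7 KO livers. Among the 7, 0 passed the threshold by limma and 1, Vil1, which was lower, had an unadjusted p under 0.05. How many of all genes had such an unadjusted p was not counted. The part of gut RNA in the Lgals4 value was not tested. The Lgals4 difference was 0.67 without the 3 arrays high in neutrophil markers, and it no longer passed the threshold. Some mouse strains carry a close copy of Lgals4, and whether probes read it was not tested.

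Counted together, 6 of the 9 galectin probe sets were past the threshold, against 4.31% of all probe sets tested, and the same 6 had genotypes that did not overlap, against 9.35% of all. Since the genes were chosen from this contrast, nothing is read from either count. Without WT 1 the first count was 2, both of Lgals8, and the calls of Lgals4 and Lgals9 were each lost in most single omissions of an array. All 9 differences were positive, with a median of 0.49, where 49.2% of all probe sets were positive and their median was -0.0031. The middle 95% of all differences lay between -0.38 and 0.44, and both Lgals1 probe sets, Lgals3 and Lgals4 lay outside that band together with the dimmer Lgals8 probe set.

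**Figure D1:**
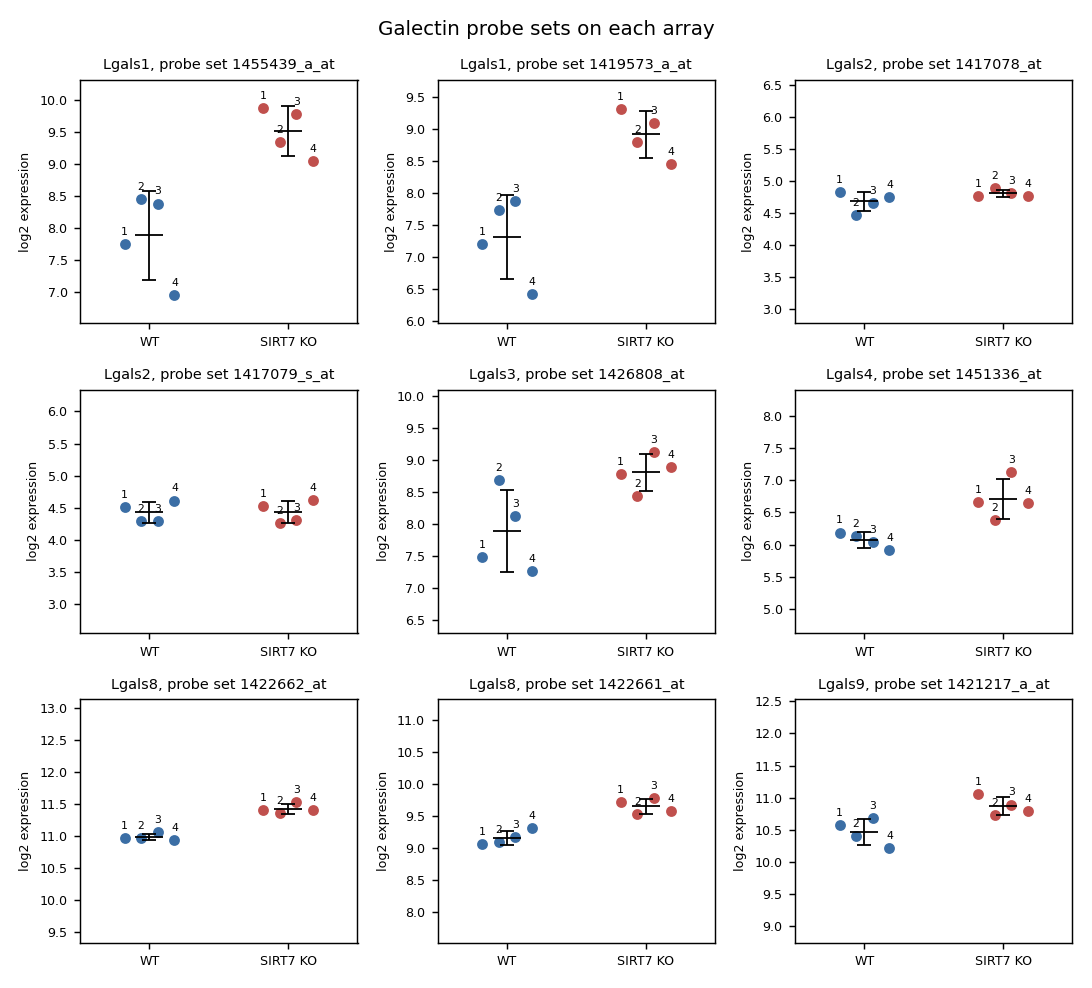
Log2 expression (vertical axes, all of equal span) of the 9 galectin probe sets on 4 WT arrays (blue) and 4 SIRT7 KO arrays (red). Points are arrays with their replicate numbers, horizontal lines are means, and bars are the SD. The Lgals1, Lgals4, Lgals8 and Lgals9 points of the 2 genotypes do not overlap, WT 2 lies within the SIRT7 KO points of Lgals3, and the Lgals2 points overlap.

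Genes of the family that were not among the 6 were also measured. Lgalsl, which encodes a galectin-related protein without sugar binding, differed by 0.38 ± 0.16 (adjusted p by limma 0.303) on its brighter probe set and by 0.55 ± 0.17 (adjusted p 0.166) on the other, on which the genotypes did not overlap. Lgals12, a galectin of fat cells, differed by 0.027 and -0.027, and Lgals7, a galectin of stratified epithelia, by 0.15 ± 0.11 (adjusted p 0.598). None of these 5 probe sets passed, and 2 of them, both of Lgalsl, had an unadjusted p under 0.05. How many of all probe sets had such an unadjusted p was not counted.

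**Figure D2:**
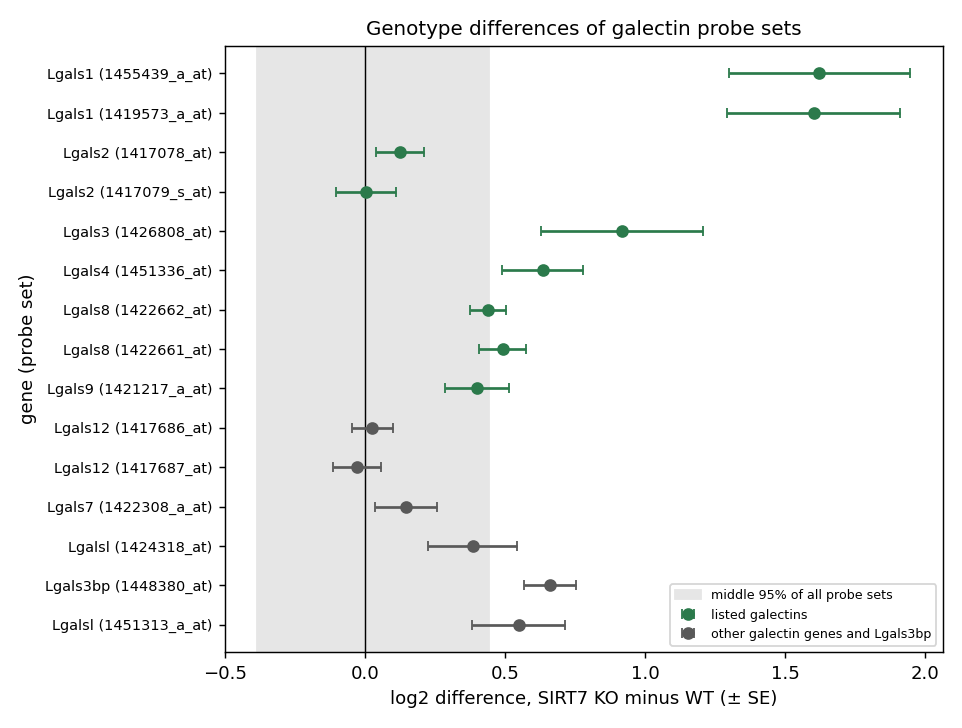
Log2 difference, SIRT7 KO minus WT (horizontal axis, bars are the SE), for the 9 probe sets of the listed galectins (green) and for other galectin genes and Lgals3bp (grey), with the middle 95% of all 22626 probe sets shaded. Lgals1 stands farthest to the right at 1.62 and 1.60. Lgals2, Lgals7, Lgals9 and Lgals12 lie within the shaded band, as do the brighter probe sets of Lgals8 and Lgalsl.

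Among known partners and receptors of galectins, 28 of 30 listed genes were measured, 4 of 28 rose and 0 fell, against 4.65% of the 12393 genes tested, and the median difference was 0.038, where that over all genes was -0.0031. Lgals3bp, a secreted glycoprotein that binds galectin 3 and is induced by interferon, read 7.85, 8.21, 8.17 and 8.15 on the WT arrays and 8.77, 8.64, 8.87 and 8.74 on the SIRT7 KO arrays. It rose by 0.66 ± 0.094 (1.58-fold, adjusted p by limma 0.0276), without overlap.

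P4hb, the protein disulphide isomerase that galectin 9 binds on T cells, rose by 0.59 ± 0.069 (adjusted p 0.0136), from 12.97 to 13.20 on the WT arrays to 13.63 to 13.66 on the SIRT7 KO arrays. Tfrc, the transferrin receptor, rose by 1.08 ± 0.21 (adjusted p 0.0565) on its brightest probe set. Its other probe sets, near the dim end, differed by 0.17 and -0.10 and did not pass, and without WT 1 the call on the brightest was lost (adjusted p 0.157). Lamb1, a laminin chain, rose by 0.29 ± 0.080 (adjusted p 0.134), a call that each single omission of an array ended. The other Lamb1 probe sets, both dimmer, differed by 0.11 and -0.071 and did not pass. Without the 3 arrays high in neutrophil markers the adjusted p was 0.176 for Lgals3bp, 0.203 for P4hb and 0.300 for Tfrc, with differences of 0.76, 0.55 and 1.20.

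Lgals3bp and P4hb lie on the chromosome of Sirt7, which can matter in a knockout, since DNA around the targeted gene may come from the strain of the stem cells. P4hb lies 45.1 kb and Lgals3bp 2216 kb from Sirt7 (chr11:120618371-120625014). Besides Sirt7 and Lgals3bp, 61 genes were measured within that longer distance on either side, P4hb among them, and of these 4 rose and 3 fell, or 11.5%, against 4.65% of all genes tested. Lgals9, on the same chromosome, is 41633 kb away. The part of flanking DNA in these values was not tested.

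Sugar chains that galectins bind were followed through the enzymes that build them. For N-glycan branching and poly-N-acetyllactosamine synthesis, 25 of 27 listed genes were measured. Of these 0 rose and 1 fell, close to the 4.65% of all genes tested, and 8 differences were positive, with a median of -0.069. The gene that fell was Slc35a3, which carries UDP-N-acetylglucosamine into the Golgi, by 0.32 ± 0.089 on the log2 scale (adjusted p by limma 0.143). Its other, dimmer probe set differed by -0.16 and did not pass (adjusted p by limma 0.587). Mgat5, the enzyme that starts the branch best bound by galectins, was dim and differed by 0.013 ± 0.091.

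Sialic acid added at the end of these chains blocks many galectins. Of 22 sialyl and fucosyl pathway genes measured from 24 listed, 0 rose and 2 fell, against 4.65% of all genes tested. The median was 0.011. Slc35a1, which carries CMP-sialic acid into the Golgi, fell by 0.34 ± 0.080 (adjusted p by limma 0.098), and Gne, the first enzyme of sialic acid synthesis, fell by 0.31 ± 0.087 (adjusted p 0.142). The other Slc35a1 probe set differed by -0.25 and did not pass (adjusted p by limma 0.280). Single omissions of an array kept the call of Slc35a1 in 2 of 8 cases, that of Gne in 1 of 8 and that of Slc35a3 in 0 of 8.

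The adaptors and enzymes that act with galectin 8 at damaged membranes did not pass the test. Of 18 genes measured from 20 listed, 0 were past the threshold by limma, against 4.65% of all genes tested. An unadjusted p under 0.05 was found for 3, and the median difference was 0.030. The share of all genes under that unadjusted cut was not counted, so nothing is read from the 3. Ctsd, a lysosomal protease, differed by 0.23 ± 0.073 (adjusted p 0.183), and Tax1bp1, an autophagy receptor, by 0.14 ± 0.061 (adjusted p 0.320).

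Interferon-stimulated genes, the list nearest to Lgals9 and Lgals3bp by known regulation, showed the most calls. Of 26 measured from 30 listed, 14 rose and 0 fell, against 4.65% of all genes tested. In this list 25 differences were positive, and the median was 0.71. This list was known to be higher in these livers when it was fixed, so its count adds no independent evidence of direction. Usp18, which removes ISG15 from proteins, differed most at 2.18 ± 0.23 (adjusted p by limma 0.00943). Ifit2, Rtp4 and Oas1a, which all act against viruses, rose by 1.09, 1.18 and 1.56. Over the partner, glycan, autophagy and interferon lists together 21 of 119 genes were called, against 4.65% of all genes tested. The count over these lists was 9 without WT 1, 12 without SIRT7 KO 4 and 13 without either WT 3 or SIRT7 KO 3. Without the 3 arrays high in neutrophil markers it was 2, and of the interferon-stimulated genes named above Ifit2 was called (adjusted p by limma 0.0959) while Usp18, Rtp4 and Oas1a were not (0.160, 0.178 and 0.215), with differences of 2.12, 1.17 and 1.57. Mean expression of the interferon list was between 7.49 and 7.94 on the WT arrays and between 8.21 and 8.76 on the SIRT7 KO arrays.

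**Figure D3:**
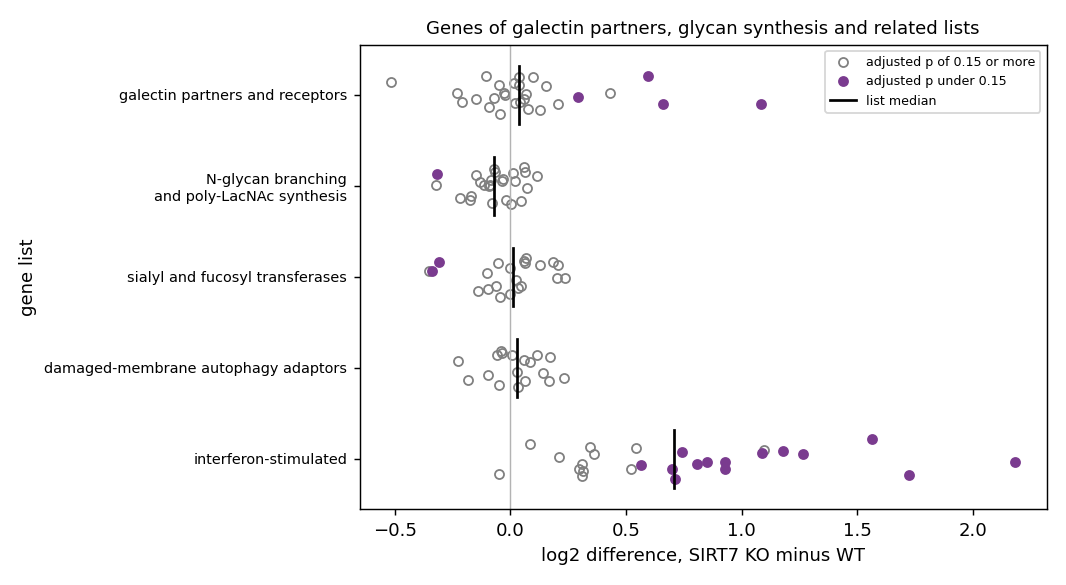
Log2 difference, SIRT7 KO minus WT (horizontal axis), for each measured gene of 5 lists (rows). Filled points had an adjusted p under 0.15, open points did not, and vertical bars are the list medians. The interferon-stimulated genes lie to the right, with a median of 0.71, while the medians of the other 4 lists lie between -0.069 and 0.038.

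The windows before the start sites of the listed genes were read for the letters of known motifs in both strands, 250 bases upstream of each start in RefSeq on GRCm38.p6. Of the 6 genes 5 had an entry, all but Lgals1. The sequences of Lgals9 and Lgals3 are shown, the first because its window holds the interferon-stimulated response element (ISRE, searched as GAAANNGAAA), and the second because the gene followed macrophage markers most closely of the 6 and its window holds a GC box (GGGCGG) and a CCAAT box. They are written 5′ to 3′ on the strand of the gene, with the motif matches in capitals.
Lgals9 (chr11:78984925-78985174, minus strand): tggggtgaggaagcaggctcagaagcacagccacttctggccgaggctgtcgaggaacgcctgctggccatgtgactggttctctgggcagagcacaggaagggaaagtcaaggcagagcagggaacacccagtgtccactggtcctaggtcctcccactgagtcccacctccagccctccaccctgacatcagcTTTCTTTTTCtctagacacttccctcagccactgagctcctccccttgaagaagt
Lgals3 (chr14:47373610-47373859, plus strand): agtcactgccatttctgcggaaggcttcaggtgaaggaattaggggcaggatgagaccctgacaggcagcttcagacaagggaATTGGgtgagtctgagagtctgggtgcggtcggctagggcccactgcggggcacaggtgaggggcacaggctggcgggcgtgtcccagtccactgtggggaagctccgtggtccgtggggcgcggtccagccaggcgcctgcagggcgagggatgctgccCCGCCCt

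The ISRE match of Lgals9 lies 55 to 46 bases before the start, on the opposite strand. Such a match was present in 3.04% of the 27018 windows in the table. In Lgals3 the GC box lies 7 to 2 bases and the CCAAT box 167 to 163 bases before the start, motifs held by 32.9% and 34.5% of all windows. Lgals4 held a CCAAT box 59 to 55 bases before its listed start and Lgals8 held 2, where both of these starts lie inside the span of the gene. Lgals2 held no match to any of the 6 motifs, which also included the GAS element (TTCNNNGAA), the AP-1 site (TGANTCA on either strand) and the TATA box (TATAAA). A match is a stretch of letters and not a bound site.

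Whether the galectins also varied together within a genotype was described by removing each genotype's mean from its 4 arrays and correlating what was left. These correlations rest on 8 arrays with 6 residual degrees of freedom, share the arrays and their leukocyte content, and carry no test. The pair of Lgals1 probe sets correlated at 0.99, the pair for Lgals8 at 0.42 and the pair for Lgals2 at 0.26. The WT and SIRT7 KO SDs were 0.69 and 0.39 for the brighter Lgals1 probe set. They were 0.052 and 0.073 for that of Lgals8, and 0.15 and 0.059 for that of Lgals2. Arrays of a genotype thus varied far less for Lgals8 and Lgals2, so these correlations do not compare how well the genes were measured. Between genes, on the brightest probe set of each, Lgals1 went with Lgals3 (0.78) and with Lgals9 (0.71), Lgals4 with Lgals8 (0.78), and Lgals2 against Lgals3 (-0.88). On the other probe set of Lgals8 the value with Lgals4 was 0.35, and on that of Lgals2 the value with Lgals3 was -0.51. The other Lgals1 probe set gave 0.70 with Lgals3 and 0.78 with Lgals9. The median over all pairs of genes, on the brightest probe set of each, was 0.42.

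Markers of cell types moved with some of these genes. Of 15 stellate cell and fibroblast markers measured, 3 rose (Lum, by 0.73, Dcn, by 0.41, and Acta2, by 0.61) and 0 fell, against 4.65% of all genes tested. Of the differences 14 were positive. The mean of the list was between 7.24 and 7.68 on the WT and between 7.76 and 8.15 on the SIRT7 KO arrays. Lum was called in each of 8 single omissions of an array, and Dcn and Acta2 in 2 of 8 each. The other, dimmer Acta2 probe set differed by -0.052 and did not pass. With the replicate block the calls of Dcn and Acta2 were lost (adjusted p by limma 0.195 and 0.192). Within genotypes, Lgals1 correlated with the mean of this list at 0.92, and between 0.864 and 0.974 when each array was left out in turn. Lgals9 correlated with it at 0.76 and about as closely with the B and plasma cell list, at 0.75. With the T and NK cell list its value was 0.65, and with the hepatocyte list -0.64. Lgals1 also went with the B and plasma cell list, at 0.73. Fewer or more cells of a type cannot be told apart from less or more RNA in each such cell. The part of stellate cells or of any other cell type in the Lgals1 and Lgals9 differences was not tested.

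Of 19 macrophage markers measured, 1 rose (Trem2, by 0.35, adjusted p by limma 0.130) and 0 fell, close to the 4.65% of all genes tested. That call held in 2 of 8 single omissions of an array, and the other Trem2 probe set, of similar brightness, differed by -0.13 and did not pass. All 19 differences were positive, with a median of 0.27, and the mean of the list was between 7.89 and 8.80 on the WT and between 8.18 and 8.88 on the SIRT7 KO arrays, so that the genotypes overlapped. Lgals3 followed this list within genotypes at 0.94, between 0.878 and 0.965 with each array left out, and the neutrophil list at 0.80. Its correlation was higher still with the galectin partners and receptors, at 0.98, and was 0.81 with the sialyl and fucosyl list. The part of macrophages in the Lgals3 difference was not tested. With the interferon-stimulated list the correlation was 0.69 for Lgals3 and -0.22 for Lgals9.

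**Figure D4:**
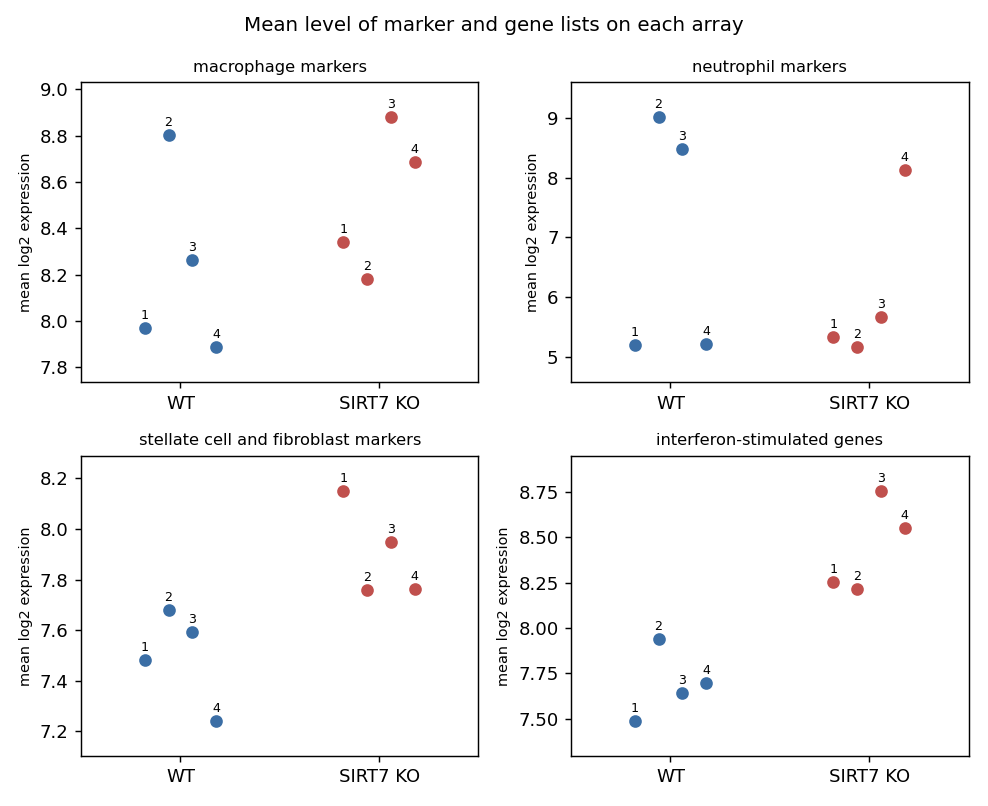
Mean log2 expression (vertical axes, scaled to each panel) of 4 gene lists on each WT array (blue) and SIRT7 KO array (red), numbered by replicate. The stellate and interferon-stimulated means do not overlap between genotypes, the macrophage means do, and the neutrophil mean stands at 8.13 or more on WT 2, WT 3 and SIRT7 KO 4 and at 5.66 or less elsewhere.

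**Figure D5:**
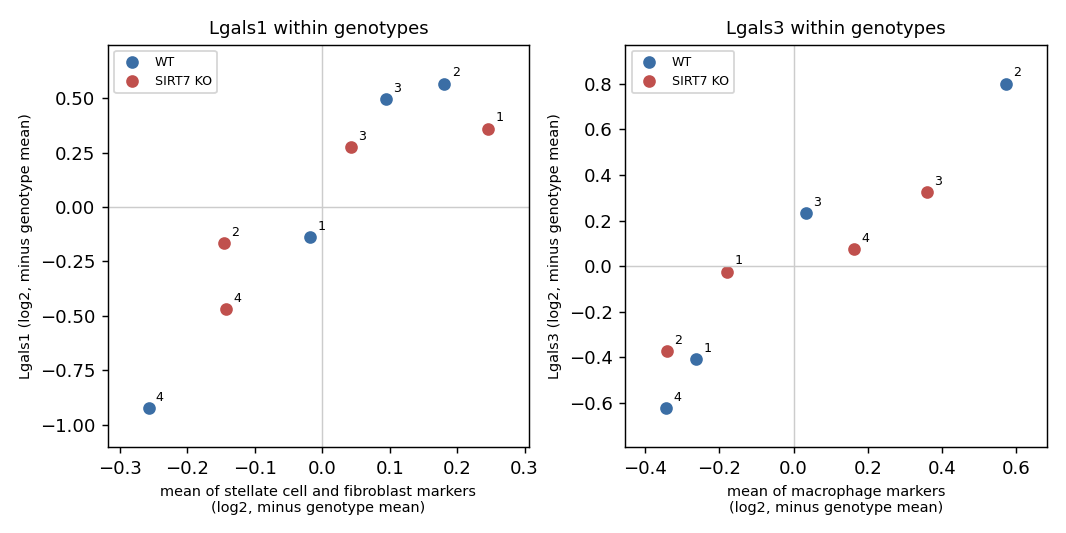
Deviation of Lgals1 from its genotype mean (left, vertical axis, log2) against that of the mean of stellate cell and fibroblast markers (horizontal axis, log2), and of Lgals3 against macrophage markers (right), on the 8 numbered arrays. Both sets of points run from low left to high right, with correlations of 0.92 and 0.94.

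The other cell types were read from the same lists, beside the 4.65% of all genes tested that were called. That share belongs to the adjusted threshold, and the share with an unadjusted p under 0.05 was not counted. Hepatocyte and cholangiocyte markers had 0 of 12 and 0 of 7 past the threshold by limma, with 1 and 0 at an unadjusted p under 0.05, and hepatocyte means lay between 13.87 and 14.05 on all arrays. Among 13 endothelial markers Lyve1 rose by 1.21 and Stab1 fell by 0.30, and among 10 T and NK cell markers Cd3g fell. Lyve1 was called in each of 8 single omissions of an array, Stab1 in 1 of 8 and Cd3g in 2 of 8, and with the replicate block Stab1 and Cd3g were not called (adjusted p by limma 0.174 and 0.183). Of 6 B and plasma cell markers and 8 neutrophil markers 0 passed, and 0 of each had an unadjusted p under 0.05. Fabp4, a lipid carrier of fat cells and endothelium, rose by 1.55 among 4 adipose markers. The others, Adipoq, Lep and Retn, differed by -0.068, -0.057 and 0.000073 and did not pass. Adipoq and Lep were below the lower quartile on every array, and the median of the list was -0.028.

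The genes whose pattern was most like each galectin within genotypes were taken from 6918 candidates, the 3 highest for each. Lgals3 was matched by Cd14, a macrophage receptor for lipopolysaccharide that is also in the macrophage list (0.99), by Tmsb4x, which binds actin (0.99), and by the transcription factor Tcf4 (0.98). Cd14 itself differed by 0.26 ± 0.32 between genotypes, near the median of 0.27 of the macrophage list, and Lgals3 by 0.92. Lgals1 was matched by Psap, the precursor of lysosomal saposins (0.97), Tsen34 (0.97) and Ankrd44 (0.95).

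Lgals4 was closest to Cyp2c50 (0.99), Nedd4l (0.97) and Cyp2c54 (0.96), where Cyp2c50 and Cyp2c54 are liver cytochromes P450 and Nedd4l is a ubiquitin ligase. Between genotypes the P450 genes went the other way from Lgals4, with differences of -1.01 (adjusted p by limma 0.171) for Cyp2c50 and -1.91 (adjusted p 0.0729) for Cyp2c54, while Nedd4l rose by 0.48 (adjusted p 0.0878). Array by array within a genotype, Lgals4 was thus high where Cyp2c50 was high, although the SIRT7 KO mean was higher for Lgals4 and lower for Cyp2c50.

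For Lgals8 the nearest were Ikbke, a kinase of interferon induction (0.98), Sdr42e1 (0.96) and Ctnna1, the adhesion protein α-catenin (0.96), and none of them passed the threshold between genotypes. For Lgals9 they were Psd3 (0.98), the GTPase Arf5 (0.97) and Mrpl23, a mitochondrial ribosomal protein (0.97). Lgals2 was nearest to the endosomal protein Eea1 (0.96), the RNA helicase Ddx19b (0.95) and Jmy (0.95), at levels where its own arrays hardly differed. Between genotypes Ddx19b differed by -0.49 (adjusted p by limma 0.0463) and was called, while Lgals2 was not. With 8 arrays and 6918 candidates, high values of this kind are common and give no ground for shared control.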

How the data were processed

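Liver RNA of 4 WT and 4 SIRT7 KO mice was measured on Affymetrix GeneChip mouse arrays, with groups taken from the sample labels. The authors deposited log2 expression values, 1 for each probe set and array. The methods of the study name RMA and the submitters' processing notes name GCRMA, so which made them is unknown, and no version is given in the sources used here. Values were used as deposited. After 64 control probe sets were left out, 22626 were tested, of which 20380 carry a single gene symbol in the platform annotation of GEO, 691 several and 1555 none.

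The genotypes were compared with limma (3.58.1, R 4.3.3; lmFit and eBayes, genotype as the only term, two-sided, Benjamini-Hochberg over all probe sets, threshold 0.15), tested on simulated data. A gene of a list is its brightest probe set over the 8 arrays. The galectins, gene lists and tests were chosen with earlier results of these data known. Named genes were every galectin, in each list up to 4 genes past the threshold by smallest p with Lgals3bp, the 3 nearest genes of each galectin, and Sirt7. Cd14, Mgat5, Ctsd, Tax1bp1, Fabp2, Cdx2, Vil1, the other galectin genes and the genes between Lgals2 and Lgals1 were named outside that rule, after their values were seen. Positions and promoters are from RefSeq (GRCm38.p6). Samples are not stated to come from separate litters or batches, so p-values cover only the spread among these arrays, whose number limits the precision. Alternatives were a threshold of 0.05, trend and robust variances, array weights, quantile normalization, median centring, a filter on dim probe sets, the replicate number as a block, the choice of probe set and the omission of arrays.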

Additional observations from a re-analysis of the deposited data

Results flagged for a closer look

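Lgals3bp on WT 1 read 7.85, apart from the other WT arrays at 8.15 to 8.21, and was the only value that stood apart from its group among 58 groups of 4 examined by Dixon's test. The gap was 0.830 of the range of the 4 arrays, just above the critical value at 95%, and chance flags about 1 in 20 groups. Lgals3bp passed the threshold in each of 8 single omissions, with a highest adjusted p by limma of 0.0853.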

How the results depend on the processing

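No galectin difference that was called turned its direction under any alternative. Of 142 galectin differences listed 139 moved by less than 1 SD and 135 were positive. Some of the 142 could not move. The threshold of 0.05, the trend and robust variances, the filter on dim probe sets and the replicate block leave a difference as it is. Since the genes were also chosen from this contrast, nothing is read from these counts. At a false discovery rate of 0.05 the probe sets called fell from 975 to 156, the galectin probe sets from 6 to 2 (both of Lgals8) and the genes of the 5 lists from 21 to 9 of 119. With 1 array left out the counts ran from 222 to 900, from 2 to 5 and from 9 to 18, with the lowest all without WT 1, where only the Lgals8 probe sets were called. Lgals4 was called without WT 4, SIRT7 KO 2 or SIRT7 KO 3, Lgals9 without WT 3, and Lgals3 without WT 2. Without the 3 arrays high in neutrophil markers (added after seeing the data) 40 probe sets, 2 galectin probe sets (both of Lgals1) and 2 list genes were called, with 5 arrays in the fit, and of the list genes named as changed in the report Ifit2 and Lyve1 alone stayed past the threshold. The median correlation among galectins, 0.42, ran from 0.295 without WT 4 to 0.521 without WT 2. With dim probe sets left out Lgals3 was called too, 7 of 7 galectin probe sets tested, among 1310 of 11313 called. The deviations of same-numbered arrays correlated at 0.26, -0.25, -0.16 and 0.15. Arrays with different numbers were not compared, so whether replicate numbers pair the arrays cannot be told from these values. With the replicate block 628 probe sets, 6 galectin probe sets and 16 list genes were called.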
